A study of Mus musculus with 8 samples.

Results

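The nuclear-encoded subunits of respiratory complex I were examined in mouse bone-derived mesenchymal stem cells (MSCs), stromal cells with the capacity to become bone, fat or cartilage. Members were the genes whose symbol reads Nduf, then a, ab, b, c, s or v, then a number, without Ndufa4, which is counted here with complex IV. This rule found 36 genes among the 53465 counted, and all 36 were among the 14369 genes tested. Their read counts per sample ran from 84 to 3499. RNA-seq was performed on 4 samples cultured at 2% oxygen (hypoxia) and 4 cultured at 21% oxygen (normoxia), both at 5% CO2 and 37°C and numbered 1 to 4 in each group. Per the labels the cells came from mice 3 to 5 months old and were purified by flow cytometry on day 12. The study describes growing all cells at low oxygen until they were sorted as CD45-/Ter119-/CD140a+/Sca-1+ cells, after which a sorted population was divided between the oxygen levels, whereas the labels place the sort at the end of culture at either level. No gene was altered in either group. The labels do not say whether the samples of a group came from separate mice, so p-values measure the spread between these samples.

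Complex I (NADH:ubiquinone oxidoreductase) is the entry point for electrons from NADH into the respiratory chain of the inner mitochondrial membrane. Its NADH-oxidizing module takes electrons from NADH and passes them along a chain of iron-sulfur clusters, its quinone-reducing module hands them to ubiquinone, and its membrane arm pumps protons. The core subunits that carry these reactions are conserved from bacteria, and part of them is encoded by mitochondrial DNA. The remaining, supernumerary subunits surround the core and are needed for its assembly or stability.

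Most complex I subunit transcripts were lower at 21% than at 2% oxygen, and 1 core subunit went the other way. In the limma-trend fit over all genes, 19 of the 36 members were lower in normoxia at an adjusted p under 0.05 (52.8%, where 16.5% of all tested genes were lower). Only Ndufs1, an iron-sulfur subunit of the NADH-oxidizing module, was higher in this fit (2.78%, where 18.0% of all tested genes were higher). The median log2 change of the members, normoxia minus hypoxia, was -0.22 (-14.2%), beside 0.0049 over all tested genes. The change was below 0 for 30 members and above 0 for 6, and the changes of the 19 lower members lay between -12.2% and -24.6%. These are differences in relative transcript level, scaled by library size with trimmed-mean factors, and not in absolute amounts. In bulk samples fewer cells of a type and less RNA per cell cannot be told apart.

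**Figure D1:**
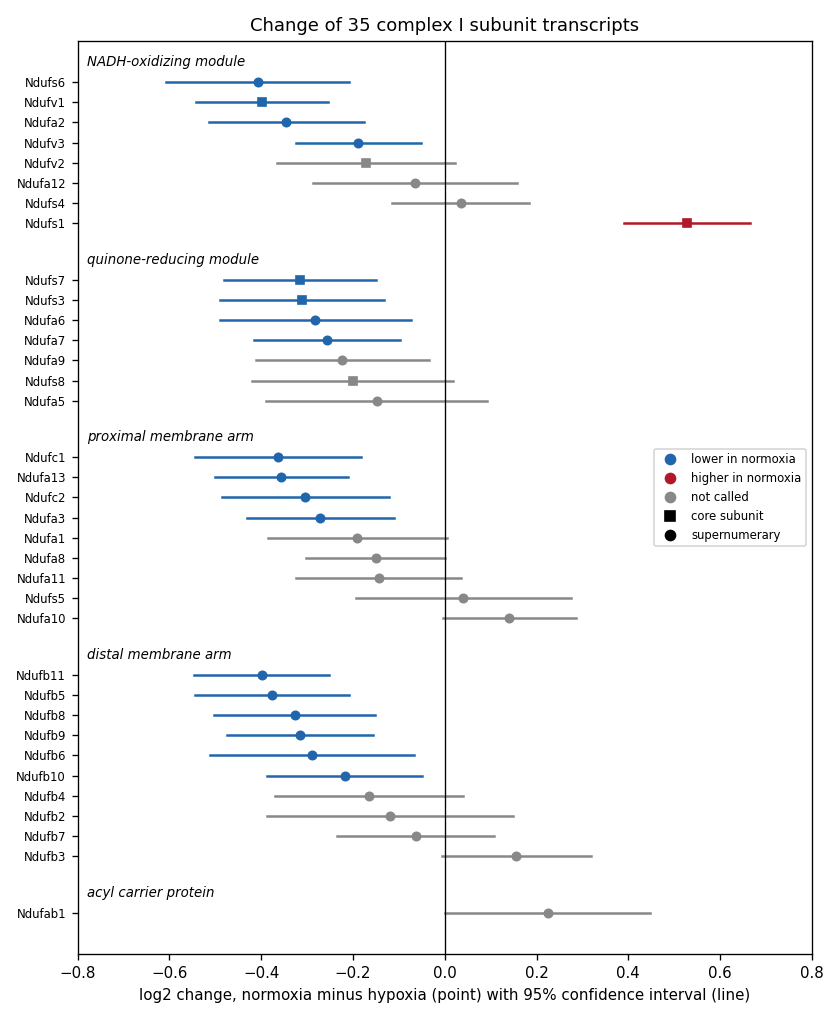
Log2 change (normoxia minus hypoxia, horizontal axis) of 35 of the members, grouped by the part of complex I they belong to, with points for the change, lines for its 95% confidence interval, squares for core and circles for supernumerary subunits. The changes run from -0.41 for Ndufs6 to 0.53 for Ndufs1, and blue points (lower in normoxia) occur in every group except the acyl carrier protein.

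Same-numbered hypoxia and normoxia samples deviated together from their group means, so the replicate number was also entered in the model as a block. Over all tested genes the deviations correlated in every pair, whereas over the 36 members alone the correlations were 0.241, 0.0312, 0.28 and -0.0452 for pairs 1 to 4. In that blocked fit 22 members were lower (61.1%, against 22.7% of all genes) and 2 were higher (5.56%, against 23.3%). The 3 members gained as lower were Ndufa1, Ndufa9 and Ndufs8, and Ndufab1 was gained as higher. A correction of each sample for transcript length and GC content, both of the longest transcript, gave 10 members lower (27.8%, against 14.4%) and 2 higher, Ndufs1 and Ndufa10 (5.56%, against 15.1%). Of the 19 members lower before, 8 were among these 10, and Ndufa9 and Ndufv2 were new. The correction together with the block gave 14 lower (38.9%, against 21.5%) and 2 higher (5.56%, against 21.7%). There were 8 members called lower in all 4 fits, among them Ndufv1, Ndufs6, Ndufb5, Ndufb11 and Ndufc1, and Ndufs1 called higher in all 4. How many of all tested genes were called in all 4 fits was not counted.

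**Figure D2:**
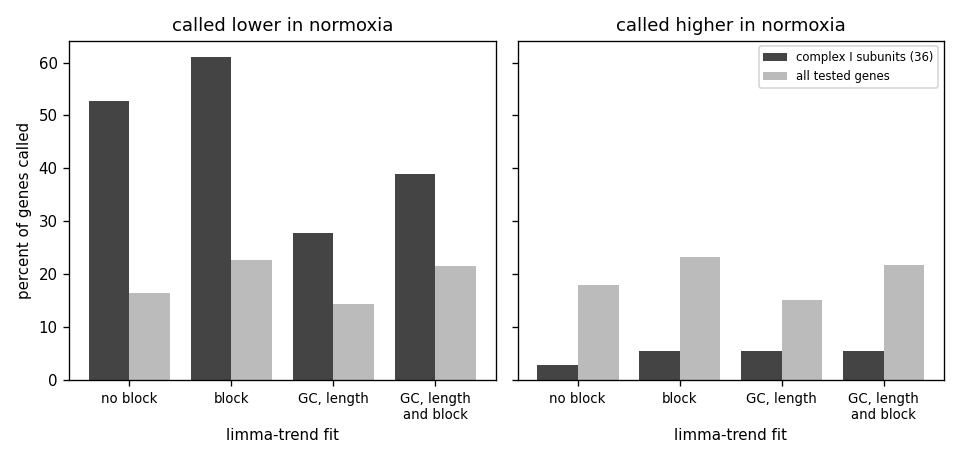
Percent of genes called lower (left) or higher (right) in normoxia in 4 limma-trend fits, for the 36 complex I subunits (dark bars) and all tested genes (light bars). The share of members called lower is 52.8%, 61.1%, 27.8% and 38.9% from left to right, beside 16.5%, 22.7%, 14.4% and 21.5% of all genes.

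The groups were also compared sample by sample. All 4 normoxia values lay below all 4 hypoxia values for 18 members (50%, against 15.5% of all tested genes). For Ndufs1 alone all normoxia values lay above (2.78%, against 17.1%). Within same-numbered pairs, 23 members were lower in normoxia in all 4 pairs (63.9%, against 26.8%), and 2, Ndufs1 and Ndufa10, were higher in all 4 pairs (5.56%, against 27.7%). The pairs differed in size, with median changes of the members of -0.122, -0.083, -0.308 and -0.402 on the log2 scale for pairs 1 to 4. Hypoxia replicate 4 held the highest of the 8 values for 21 members.

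Members took between 0.156% and 0.189% of all counts in hypoxia and between 0.153% and 0.164% in normoxia, so the groups overlapped in this share. Mean log2 CPM over the members (CPM, read counts scaled by library size with trimmed-mean factors, here on the log2 scale with a prior count of 3) was 5.44, 5.31, 5.49 and 5.56 in hypoxia 1 to 4. It was 5.34, 5.28, 5.24 and 5.22 in normoxia 1 to 4. Hypoxia 2 was the lowest hypoxia sample and lay between normoxia 1 and normoxia 2.

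Total counts ran from 12898291 to 25132141 per sample, and hypoxia 1 was the deepest library. The oxygen labels were checked with 8 genes known to respond to hypoxia, of which 7 were lower in normoxia, all except Vegfa (log2 change -0.064). All 12 MSC markers were counted in every sample, and 2 were lower (Col1a1 at -0.74 and Eng at -0.27) and 2 higher (Cd44 at 0.72 and Nt5e at 0.59) in normoxia. With the block 7 were lower and 4 higher (against 22.7% and 23.3% of all genes). Of 6 osteoblast markers 4 were tested, with a median of -0.46, and Alpl passed the test (-0.48). Dmp1 (0 to 8 counts) and Bglap2 (8 to 22 counts) had few reads. The summed level of the markers was lower in normoxia in all 4 pairs and rests mostly on Alpl. The part of these cell type markers in the subunit changes was not tested beyond the macrophage covariate. The cells were sorted without CD45, yet all 12 macrophage markers passed the filter, with a summed level of 673 to 1491 CPM in hypoxia and 780 to 1547 CPM in normoxia. These sums overlapped, and the sum was lower in normoxia in 2 of the 4 pairs. It includes Lyz2, the most counted of the 12 markers, which was higher (log2 change 0.56). Of the 12 markers, 8 were lower in normoxia in all 4 pairs, beside 26.8% of all tested genes and 23 of the 36 complex I members. In the unblocked fit 2 markers were lower and 1 higher. With the replicate block 7 were lower and 1 was higher (against 22.7% and 23.3% of all genes). Among the lower ones were Mrc1 (-0.84), C1qa (-0.77), C1qc (-0.63) and Csf1r (-0.59). With the mean log2 level of the 12 markers as a covariate, 15 members were lower and 1 was higher. In that fit 2162 of the 14369 tested genes were lower and 2390 higher. None of 6 erythroid, 2 of 6 endothelial and 2 of 5 adipocyte markers passed the filter, and none of those tested was called in the unblocked fit.

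In the NADH-oxidizing module 4 of 8 members were lower and 1 was higher, with a median log2 change of -0.18. Its 3 core subunits gave different calls. Ndufs1 (chr1:63143596-63176833, minus strand, GRCm38), the largest subunit of the complex, carries iron-sulfur clusters that take electrons away from the flavin. Its log2 CPM was 5.64, 5.53, 5.56 and 5.50 in hypoxia 1 to 4 and 6.19, 5.99, 6.12 and 6.05 in normoxia 1 to 4. Every normoxia sample lay above every hypoxia sample. The log2 change was 0.53 with a standard error (SE) of 0.063, a rise of 44.2% (limma-trend adjusted p = 0.000147), and pair changes ran from 0.46 to 0.55. After GC and length correction it was 0.40 (adjusted p = 0.00077). Exons of Ndufs1 overlap 489 bases of the antisense gene Ino80dos, which had 2 to 15 counts, and 9 bases of Eef1b2.

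Ndufv1 (chr19:4007384-4012806, minus strand) binds the flavin and is where NADH is oxidized. Its log2 CPM was 6.54, 6.33, 6.58 and 6.46 in hypoxia and 6.05, 6.05, 6.16 and 6.04 in normoxia, in the order of replicates 1 to 4. The groups did not overlap, and the log2 change was -0.40 (SE 0.066, adjusted p = 0.00087). Ndufv2 (chr17:66078638-66101559, minus strand), the partner of Ndufv1 that holds a further iron-sulfur cluster, had log2 CPM values of 5.86, 5.78, 5.86 and 6.11 in hypoxia and 5.92, 5.76, 5.63 and 5.61 in normoxia. These values overlapped, with normoxia 1 above 3 of the hypoxia samples, and the change of -0.17 did not pass the test (SE 0.089, adjusted p = 0.156). With GC and length correction it was -0.32 and passed (adjusted p = 0.0092). The longest Ndufv2 transcript is among the most AT-rich of the members.

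Ndufs1 and Ndufv1 sit side by side in the module, and their reads were compared within each sample. This ratio was chosen after the values were seen and is given without a test. It is a ratio of reads corrected neither for transcript length nor for GC content, so its absolute size is not informative. The longest transcripts differ in GC content (45.1% for Ndufs1 and 56.7% for Ndufv1). With GC and length correction the log2 change was 0.40 for Ndufs1 and -0.21 for Ndufv1, both nearer 0 than without it. Ndufs1 had 0.494 to 0.575 reads per Ndufv1 read in hypoxia and 0.963 to 1.1 in normoxia. Ndufs4 and Ndufv2, which did not pass the test themselves, gave the same order, with 1.29 to 1.47 against 1.77 to 2.06 for Ndufs4 and 0.656 to 0.858 against 1.18 to 1.41 for Ndufv2. In none of these 3 ratios did the groups overlap. All 3 share the reads of Ndufs1, whose own groups did not overlap, so they restate its change and are not separate evidence.

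**Figure D3:**
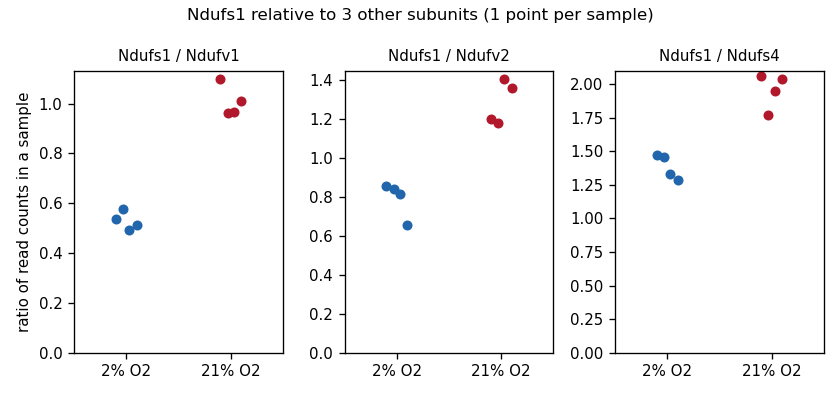
Reads of Ndufs1 divided by reads of 3 other subunits (vertical axis, from 0) in each of the 4 samples at 2% oxygen (blue) and at 21% oxygen (red). In each panel all normoxia points lie above all hypoxia points, as for Ndufv1 with 0.494 to 0.575 in hypoxia and 0.963 to 1.1 in normoxia. The reads are not corrected for GC content or length.

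Among the supernumerary subunits of this module, Ndufs6 (chr13:73319838-73328542, minus strand), a zinc-binding subunit, had the most negative change of all members. Its log2 CPM was 5.32, 5.15, 5.49 and 5.60 in hypoxia and 5.04, 4.93, 4.98 and 4.97 in normoxia. The change was -0.41 (SE 0.092, adjusted p = 0.0050), without overlap between the groups. Corrected for GC content and length of the principal transcript it was -0.15 and did not pass (adjusted p = 0.10). Ndufa2 (chr18:36742332-36744557, minus strand), a small subunit with a thioredoxin-like fold, had values of 6.10, 6.03, 6.15 and 6.36 in hypoxia and 5.73, 5.93, 5.81 and 5.79 in normoxia. Its change was -0.34 (SE 0.077, adjusted p = 0.0049), and with GC and length correction it was -0.18 (adjusted p = 0.063). The fourth lower member was Ndufv3, at -0.19 (adjusted p = 0.035). Ndufs4 (chr13:114287795-114388258, minus strand), which joins late in assembly and is mutated in Leigh syndrome, had the smallest change of the 36. Its log2 CPM was 5.09, 4.99, 5.15 and 5.14 in hypoxia and 5.15, 5.18, 5.16 and 5.03 in normoxia, which overlap. The change of 0.04 had a 95% confidence interval of -0.11 to 0.18 (adjusted p = 0.73).

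**Figure D4:**
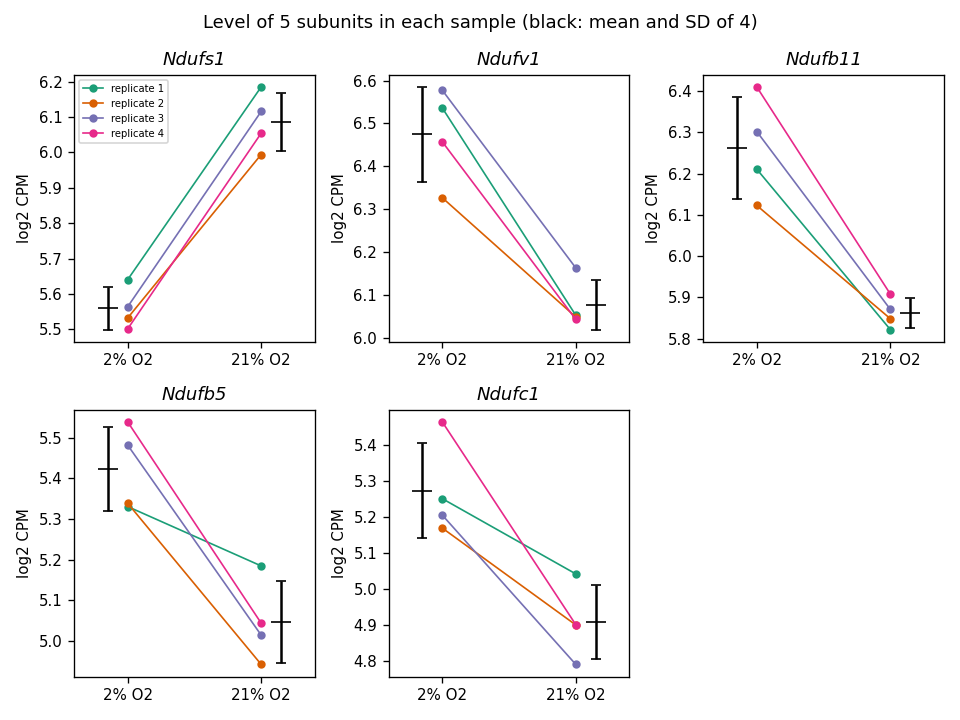
Log2 CPM of 5 subunits that passed the test in every alternative, in each sample at 2% and 21% oxygen, with lines joining same-numbered samples and black marks for the mean and SD of 4 samples per group. The vertical axes differ between panels and do not start at 0. Ndufs1 rises in all 4 pairs, from 5.56 to 6.09 on average, and the other 4 fall in all 4 pairs.

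In the quinone-reducing module all 8 members had a change below 0, 5 of them passed the test as lower, and the median was -0.27. With the replicate block 7 were lower (against 22.7% of all genes), and with GC and length correction 2 (against 14.4%).

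Ndufs7 (chr10:80249121-80256794, plus strand) holds the last iron-sulfur cluster before ubiquinone. Its log2 CPM was 5.00, 4.96, 5.23 and 5.12 in hypoxia and 4.75, 4.81, 4.71 and 4.79 in normoxia. The groups did not overlap, and the change was -0.32 (SE 0.076, adjusted p = 0.0073). After GC and length correction it was only -0.04 (adjusted p = 0.70). Ndufs3 (chr2:90894634-90904827, minus strand), the core subunit that bridges both modules of the matrix arm, had values of 5.51, 5.32, 5.60 and 5.71 in hypoxia and 5.23, 5.20, 5.29 and 5.17 in normoxia. Its change was -0.31 (SE 0.082, adjusted p = 0.012) without overlap, and -0.14 with the correction (adjusted p = 0.11). A near-identical pseudogene, Gm12251, held 28.9% as many counts as Ndufs3, so reads may have been split between them.

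Ndufs8 (chr19:3908863-3912774, minus strand), which carries a pair of iron-sulfur clusters, had log2 CPM values of 5.23, 4.89, 5.21 and 5.17 in hypoxia and 5.14, 4.80, 4.97 and 4.78 in normoxia. Replicate 2 was low in both groups, and the groups overlapped. The change of -0.20 did not pass the test without the block (SE 0.101, adjusted p = 0.145) and passed with it (adjusted p = 0.027). Ndufa9, a nucleotide-binding subunit, had a change of -0.22 (adjusted p = 0.066 without and 0.0063 with the block) and passed in 8 of the 26 alternatives. Ndufa6 and Ndufa7 were also lower, at -0.28 and -0.26.

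In the proximal membrane arm 4 of 9 members were lower and none higher, with a median of -0.19. Ndufa13 (chr8:69894180-69902558, minus strand), also known as GRIM-19, had log2 CPM values of 6.50, 6.44, 6.64 and 6.62 in hypoxia and 6.22, 6.29, 6.16 and 6.10 in normoxia. The groups did not overlap, with a change of -0.36 (SE 0.066, adjusted p = 0.0017). With GC and length correction the change was -0.09 (adjusted p = 0.28), and its longest transcript has the highest GC content of the members. Ndufc1 (chr3:51404677-51408988, minus strand), a small membrane subunit, had values of 5.25, 5.17, 5.21 and 5.46 in hypoxia and 5.04, 4.90, 4.79 and 4.90 in normoxia. Its change was -0.36 (SE 0.083, adjusted p = 0.0055) and grew to -0.45 with the correction (adjusted p = 0.0008). Ndufa13 and Ndufc1 thus had nearly equal changes without the correction and unequal ones with it.

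Ndufc2 and Ndufa3 were the other lower members of this arm, at -0.30 and -0.27. Ndufa10, a subunit with a nucleoside kinase-like fold, had a change of 0.14 that did not pass the test (adjusted p = 0.124). It was higher in normoxia in all 4 pairs and passed with the correction, at 0.21 (adjusted p = 0.035). Ndufa1, encoded on the X chromosome, had a change of -0.19 (adjusted p = 0.12 without and 0.027 with the block). Ndufa8 did not pass (-0.15, adjusted p = 0.116), although its groups did not overlap. For Ndufs5 (0.04) the pseudogene BC002163 held 41.4% as many counts as the gene itself, and for Ndufa12 of the NADH-oxidizing module (-0.06) the pseudogene Gm15920 held 35.9%. Near-identical stretches at other loci were found for 9 members in all, and for Ndufc1 these were short stretches inside unrelated genes. Adding the counts of the pseudogene copies to the members left 19 lower and 1 higher. The stretches matching Ndufc1 were not added, so its call was not checked in this way. Exons of 14 members overlap a gene on the opposite strand, and those of 3 (Ndufb2, Ndufb8 and Ndufb9) overlap a read-through gene on the same strand, which had 0 counts in each case.

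In the distal membrane arm 6 of 10 members were lower and none higher, with a median of -0.25. Ndufb11 (chrX:20615326-20617619, minus strand) had log2 CPM values of 6.21, 6.12, 6.30 and 6.41 in hypoxia and 5.82, 5.85, 5.87 and 5.91 in normoxia. The normoxia samples lay within a narrow band below all hypoxia samples, and the change was -0.40 (SE 0.068, adjusted p = 0.0010). Ndufb5 (chr3:32736990-32751566, plus strand) had values of 5.33, 5.34, 5.48 and 5.54 in hypoxia and 5.18, 4.94, 5.01 and 5.04 in normoxia. Its change was -0.38 (SE 0.077, adjusted p = 0.0029) without overlap, and 616 bases of its exons overlap Mrpl47 on the opposite strand, which had 98 to 255 counts.

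Ndufb9 (chr15:58933756-58939488, plus strand), of the LYR family of small mitochondrial proteins that bind the acyl carrier protein, had values of 5.26, 5.32, 5.40 and 5.41 in hypoxia and 5.18, 5.02, 4.94 and 4.98 in normoxia. The groups did not overlap and the change was -0.32 (SE 0.074, adjusted p = 0.0060), but with GC and length correction it was -0.08 (adjusted p = 0.43). Ndufb8, Ndufb6 and Ndufb10 were also lower, at -0.33, -0.29 and -0.22. With GC and length correction 3 members of this arm were lower (against 14.4% of all genes) in place of 6. Ndufb10 (-0.03, adjusted p = 0.76) and Ndufb6 (-0.22, adjusted p = 0.078) also no longer passed. Ndufb8 passed at -0.39 with this correction but not with that of the principal transcript (-0.09, adjusted p = 0.33). Ndufb3 had a change of 0.16 that did not pass (adjusted p = 0.127). Ndufb1 is a known subunit of this arm, but the annotation used here carries its locus as Ndufb1-ps, which the symbol rule leaves out. That gene had a change of -0.18 (adjusted p = 0.21).

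Ndufab1, the mitochondrial acyl carrier protein, belongs to complex I and also serves mitochondrial fatty acid synthesis. Its change was 0.22 (adjusted p = 0.111 without and 0.047 with the block), opposite in sign to the median of every module. Over all modules, 4 of the 7 nuclear core subunits were lower and 1 was higher, with a median of -0.31. Of the 29 supernumerary subunits 15 were lower and none higher, with a median of -0.22.

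Levels between members were compared per length, as CPM per kilobase of exon (the RPKM scale), taken as the mean of the 8 samples. Ndufa2 had the highest level, at 111.8, and Ndufb2 the lowest, at 1.361. The log2 CPM of Ndufb2 (chr6:39592574-39603382, plus strand) was 3.26, 2.80, 2.94 and 3.10 in hypoxia and 2.92, 2.92, 2.91 and 2.90 in normoxia. These values overlapped, and the change of -0.12 did not pass (SE 0.123, adjusted p = 0.50). Exons of Ndufb2 overlap Braf by 146 bases on the opposite strand. The order depended on the length used, since by the length of the principal transcript Ndufa7 came first at 147.4, above Ndufa3 at 126.5 and Ndufa2 at 111.8. Ndufb2 was lowest by every length. Complex I subunits are assembled in equal number apart from the acyl carrier protein, whereas these transcript levels were not equal.

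The changes followed base composition in the members and in all genes. Across the 36 members the Spearman correlation of the log2 change with the GC content of the principal transcript was -0.362, and across 14353 tested genes it was -0.392. Both are correlations across genes of the same 8 libraries, which are not independent points. Member transcripts were short, with a median of 939.5 bases against 2882 bases over all tested genes. They were also slightly richer in GC, at 52.17% against 50.2%. GC and length correction by the longest transcript shifted the members' median from -0.22 to -0.11 and lowered the number called lower from 19 to 10. By the principal transcript the median was -0.085 and 8 members were lower, beside 2038 of the 14353 genes.

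**Figure D5:**
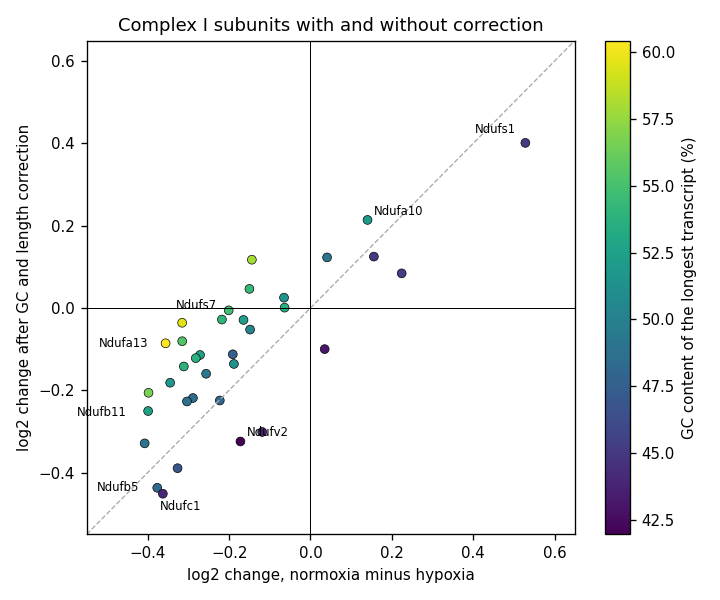
Log2 change of 35 of the members without (horizontal axis) and with (vertical axis) correction for GC content and length, coloured by the GC content of the longest transcript, with a dashed line where both are equal. GC-rich members such as Ndufa13 (-0.36 to -0.09) and Ndufs7 (-0.32 to -0.04) move up towards 0, AT-rich members such as Ndufc1 (-0.36 to -0.45) and Ndufv2 (-0.17 to -0.32) move down, and Ndufs1 stays highest.

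Promoter sequence was available in the RefSeq table (GRCm38.p6, 250 bases before to 50 bases after the start) for 32 members and was searched on both strands for letters typical of 5 factors. None of these letters occurred in all 32 members, and a link between letters and changes was not tested. The letters AAGATGGCG of the YY1 motif, a factor bound near the start of many mitochondrial protein genes, occurred in 5 members (15.6%, against 1.64% of 27025 genes in the table). The 30-base stretches that hold it are shown 5′ to 3′ on the gene strand, with the motif in capitals.
Ndufa9: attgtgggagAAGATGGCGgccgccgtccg
Ndufc1: cctgcggaacAAGATGGCGccgtccgtagt
Ndufs4: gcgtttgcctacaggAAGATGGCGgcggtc
Ndufs6: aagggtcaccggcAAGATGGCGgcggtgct
Ndufs7: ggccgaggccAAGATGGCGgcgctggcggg

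These stretches lie at chr6:126849096-126849125, chr3:51408914-51408943, chr13:114388045-114388074, chr13:73328433-73328462 and chr10:80249463-80249492, in the order shown. In all 5 the motif begins between 23 and 36 bases after the start, and its ATG is the annotated start codon. Their calls differed. Ndufc1, Ndufs6 and Ndufs7 were lower in normoxia, Ndufa9 did not pass in the unblocked fit, and Ndufs4 had the smallest change of all members.

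The letters CGCATGCG of the nuclear respiratory factor NRF1 occurred in 2 members (6.25%, against 2.07%), which are shown in the same way.
Ndufa11: ctgcactgcgCGCATGCGcgcacgccttgt
Ndufa8: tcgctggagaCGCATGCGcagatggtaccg

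They lie at chr17:56717693-56717722 and chr2:36049328-36049357. Neither Ndufa11 (-0.14, adjusted p = 0.20) nor Ndufa8 passed the test. The letters CCGGAAG of ETS factors occurred in 12.5% of members against 9.93% of all genes. The letters GGGCGG of SP1 occurred in 46.9% against 38.2%, and ACGTG of the hypoxia response element in 18.8% against 21.8%. A match is a description of the letters and not a bound site.

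The 7 complex I subunits encoded by mitochondrial DNA had a median log2 change of 0.08, which turned to -0.08 with GC and length correction. For 5 of them the normoxia value was above the hypoxia value in all 4 pairs, though none passed the test as higher. In the uncorrected fits mt-Nd3, a small core subunit of the membrane arm, was the 1 called lower. With the correction and the block 3 were lower and none higher (against 21.5% and 21.7% of all genes). Besides mt-Nd3, mt-Nd1 (adjusted p = 0.018) and mt-Nd5 (adjusted p = 0.029) were then called lower, at -0.13 and -0.11. The log2 CPM of mt-Nd3 was 8.26, 8.02, 7.93 and 8.27 in hypoxia and 7.89, 7.74, 7.54 and 7.70 in normoxia, without overlap between the groups. The change was -0.40 (SE 0.092, adjusted p = 0.0053). The difference between the mitochondrial and the nuclear subunits was not tested.

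Of 21 assembly factors, proteins that build complex I without staying in it, 20 were tested, 4 were higher, 1 was lower and the median was 0.05. A share of 4 in 20 is near the 18.0% of all tested genes that were higher. Tmem126b, which helps assemble the membrane arm, had log2 CPM values of 3.79, 3.93, 3.73 and 3.55 in hypoxia and 4.25, 4.45, 4.17 and 4.48 in normoxia. Every normoxia value lay above every hypoxia value, with a change of 0.59 (SE 0.107, adjusted p = 0.0014). Ndufaf4, which acts on the quinone-reducing module, had a change of 0.49 (adjusted p = 0.0053), and 0.10 was its adjusted p with GC and length correction. Ndufaf2, a relative of Ndufa12, had a change of 0.44 (adjusted p = 0.022). Lyrm2, a LYR protein, had a change of 0.39 (adjusted p = 0.020). Ndufaf8 was lower, at -0.44 (adjusted p = 0.014), which did not pass with the correction (adjusted p = 0.19). With the block 4 were higher and 3 lower (against 23.3% and 22.7% of all genes), and the lower ones then included Ndufaf3 (-0.37, adjusted p = 0.0074). Not called in any of the 4 fits were, for example, Ndufaf1 (0.07) and Acad9 (-0.02).

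Of 40 nuclear-encoded genes of complexes II to V, which include the complex V inhibitor Atpif1, 16 were lower and none higher. Over all tested genes 16.5% were lower and 18.0% higher. The median of the 40 was -0.20, a direction they share with the nuclear complex I members. With the block 21 were lower and 1 higher (against 22.7% and 23.3% of all genes). With GC and length correction 15 were lower and 4 higher (against 14.4% and 15.1%). Complex V had 9 of 16 lower, complex IV 4 of 11, complex III 1 of 9 and complex II 2 of 4. Ndufa4, once counted as a complex I subunit, had a change of 0.18 that did not pass (adjusted p = 0.17). Its relative Ndufa4l2, known to be induced by hypoxia-inducible factor, had log2 CPM values of 7.59, 7.61, 7.83 and 7.77 in hypoxia and 6.60, 6.80, 6.91 and 6.97 in normoxia. All normoxia values lay below, with a change of -0.88 (SE 0.084, adjusted p = 5.99e-05).

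With scaling by library size alone, 11 members were lower and 4 higher, and all genes split into 1575 lower and 3611 higher in place of 2378 and 2592. Ndufs1, Ndufv1, Ndufb11, Ndufb5 and Ndufc1 were among the 6 members that passed the threshold in all 26 alternatives. The matching number over all genes was not counted. The calls of Ndufa6, Ndufa7, Ndufb6, Ndufb10 and Ndufv3 were each lost when hypoxia replicate 3, hypoxia replicate 4 or normoxia replicate 3 was left out, which left 14 members lower. Without normoxia replicate 4 the same calls were lost except that of Ndufa7. Ndufa6, Ndufb6 and Ndufv3 lost theirs without normoxia replicate 1, as did Ndufb6 and Ndufb10 without normoxia replicate 2. Without hypoxia replicate 2, Ndufa1, Ndufa9, Ndufb4 and Ndufs8 were gained as lower, for a count of 23, and Ndufa1 and Ndufs8 were also gained without normoxia replicate 1.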

How the data were processed

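RNA-seq libraries were prepared by the authors with the NEBNext Ultra II kit and sequenced as single-end reads. The authors ran zUMIs with STAR, samtools and featureCounts against mm10 and Ensembl genes and deposited raw read counts per gene, which are not normalized. Strand, intron and multi-mapping settings are not given in the sources used here, so overlapping or near-identical genes are uncertain. Symbols, exons and transcripts came from GENCODE M21 (GRCm38), and gene IDs without a symbol held 0.00364% of counts. Promoters came from RefSeq.

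The members, lists, tests and most alternatives were chosen with earlier results of these data known. Genes were kept by filterByExpr with a minimum count of 5 in edgeR 4.0.16 and compared on TMM-scaled log2 CPM (prior count 3) with limma-trend in limma 3.58.1 (R 4.3.3). Benjamini-Hochberg adjustment was applied over 14369 genes, with a threshold of 0.05. Percent changes are back-transformed log2 changes, which understate changes of genes with few counts. Samples with the same number paired, since the study divided a sorted population and their deviations from group means correlated (0.474, 0.275, 0.249 and 0.172 across genes). The GC and length correction removed natural splines with 5 degrees of freedom from each sample, along with any true change that follows these properties. Near-identical copies were matches of at least 95% identity over 100 bases or more. Alternatives were the edgeR quasi-likelihood test, DESeq2 1.42.0, limma-voom, other scaling, filters and prior counts, and leaving out each sample. Added after seeing the data were the correction by principal transcript, added copies and the macrophage covariate. The fits were tested on simulated data.

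Values in all 8 samples are given for the 10 called members with the smallest adjusted p, the called member opposite to the rest, the 7 core subunits, the highest and lowest level per length and the smallest change. Mitochondrially encoded subunits, assembly factors and Ndufa4 relatives are named where called, with up to 3 others. The values of 1 member are not reported here, though it is included in the counts and medians. Any other gene or ratio was chosen after its values were seen. At these depths 3 counts correspond to 0.119 to 0.233 CPM, which covers counting error only.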

Additional observations from a re-analysis of the deposited data

Results flagged for a closer look

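A sample far from the other 3 of its group was found in 5 of 72 sets of 4 values, where chance gives about 3.6. Hypoxia 1 was high for Ndufa10, at a log2 CPM of 5.735 against 5.558 to 5.564 in the other hypoxia samples. Hypoxia 2 was low for Ndufa11, at 5.439 against 5.667 to 5.696. Normoxia 1 was high for Ndufb10, at 5.697 against 5.535 to 5.558. Normoxia 4 was low for Ndufs5, at 4.674 against 4.949 to 5.003. Normoxia 3 was high for Ndufv1, at 6.163 against 6.043 to 6.052, and still lay below every hypoxia sample. Without hypoxia 1, Ndufa10 passed the test as higher in normoxia.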

How the results depend on the processing

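The count of members lower in normoxia was 19 and moved by less than 1.5 times with the edgeR test (19), DESeq2 (20), limma-voom (16), other factor-based scaling (19 or 20), no filter (15), the replicate block (22) and the macrophage covariate (15). It was 11 with library size alone, 10 with GC and length correction, 8 with that of the principal transcript and 12 with the latter and the block. In these principal-transcript fits, without and with the block, 2038 and 3065 of all 14353 genes were lower. Leaving out each sample gave 14 to 23 lower and 1 to 2 higher. The count higher was 1, and became 4 with library size alone, 2 with the block, 2 with GC and length correction with or without the block, 2 with the principal transcript and 4 with that and the block. The paired fit lost none of the 19 lower calls. The cause of these differences was not tested.

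The sign turned for 8 members. Under library size alone it did so for Ndufa12 (0.0227) and Ndufb7 (0.0244). Under GC and length correction, with or without the block, it did so for Ndufa11 (0.117), Ndufa12 (0.0252), Ndufa8 (0.0465), Ndufb7 (0.000874) and Ndufs4 (-0.0999). With the principal transcript, with or without the block, it did so for Ndufa11 (0.167), Ndufa12 (0.0302), Ndufa7 (0.00170), Ndufa8 (0.0423), Ndufb10 (0.0158), Ndufb7 (0.259) and Ndufs4 (-0.124). Ndufb7 then passed as higher (limma-trend adjusted p = 0.0063 without and 0.00081 with the block). Ndufa11 passed as higher with the block (limma-trend adjusted p = 0.029). Leaving out each sample moved Ndufs5 between -0.0485 and 0.106, below 0 without hypoxia replicate 2 and without normoxia replicate 1 (-0.00548). Of these 8, Ndufa7 and Ndufb10 were called before. Counts of 84 to 225 reads limit Ndufb2 most.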
